A study of Mus musculus with 6 samples.

Results

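The vesicular glutamate transporters are the 3 genes Slc17a6, Slc17a7 and Slc17a8, which encode VGLUT2, VGLUT1 and VGLUT3. They were 3 of the 55341 gene symbols counted in cultured mouse cerebellar granule neurons (CGNs), and all 3 passed the filter on low counts that left 16343 genes for testing. The 3 genes and the ratio of Slc17a7 to Slc17a6 were chosen by their values in these same libraries, in the contrast of GSK-126 against DMSO paired by replicate number. Their levels, fold changes and ratio are therefore given as a description with no test.

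Poly(A) RNA was sequenced from 3 cultures treated with GSK-126, an inhibitor of EZH2, the histone H3 lysine 27 methyltransferase of Polycomb repressive complex 2, and from 3 cultures given its solvent DMSO. The labels name no targeted allele in any of the 6 cultures, which came from cerebella of mouse pups about a week old. The labels give the tissue as cerebellum and the replicate numbers 1 to 3 in each group, but neither dose nor day. In the study's methods inhibitors were added once, on day 1 or day 3 in culture, and the cultures were processed on a later day. Which of the starting days applies to these libraries is not given in the labels. By the study's methods, each replicate was a culture from the pooled cerebella of litters of CD1-IGS mice. Granule neuron precursors were enriched on a Percoll gradient and dividing cells were suppressed with AraC, so the cultures could hold other cells in unknown number.

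Neurons that release glutamate load it from the cytosol into synaptic vesicles through a vesicular glutamate transporter, which is driven by the electrochemical gradient made by the vesicular proton pump. VGLUT2 is the form that immature cerebellar granule neurons carry first, and VGLUT1 largely replaces it at their parallel fibre synapses as the cerebellum matures. VGLUT3 is known from a minority of neurons that release glutamate beside another transmitter.

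Slc17a7 (ENSMUSG00000070570.5) lies on chromosome 7 of GRCm38, positions 45163949 to 45176142, on the plus strand. Slc17a6 (ENSMUSG00000030500.6) lies on the same chromosome and strand at 51622006 to 51671119, its start 6.46 Mb from that of Slc17a7. Slc17a8 (ENSMUSG00000019935.16) lies on chromosome 10 at 89574020 to 89621253, on the minus strand. The main coding transcript of each has 12 exons, and no exon of the 3 genes overlaps another annotated gene on either strand. Aligned coding sequences were 71.4% identical in bases between Slc17a6 and Slc17a7, 71.1% between Slc17a6 and Slc17a8 and 70.1% between Slc17a7 and Slc17a8. The longest identical stretch was 21 bases between Slc17a6 and Slc17a7, 25 between Slc17a6 and Slc17a8 and 17 between Slc17a7 and Slc17a8.

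The study's quantitative PCR oligonucleotides for Slc17a7 are shown because they mark a stretch of coding sequence that tells it from its paralogs. The study lists them as Vglut1. Its caption on quantitative PCR after another inhibitor, GSK-J4, instead names Vglut2, among late genes, and its captions report no such measurement of Vglut1. The forward primer lies in exon 7 (GRCm38 chr7:45170922-45170941) and the reverse primer in exon 8 (chr7:45171816-45171835), with a product of 129 bases. Each has 0 mismatches to Slc17a7. The best placement of the forward primer leaves 6 mismatches to Slc17a6 and 7 to Slc17a8, and that of the reverse primer leaves 4 to Slc17a6 and 3 to Slc17a8. All letters are in lower case, 5′ to 3′.
Vglut1 F: ctgaggaggagcgcaaatac
Vglut1 R: caacgatgatggcatagacg

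The promoters of the pair whose ratio is described differ in their content of CpG dinucleotides, which are marked in capitals. The 300 bases from 250 before to 50 after the start are from RefSeq (GRCm38.p6), both on the plus strand: chr7:45163671-45163970 for Slc17a7 and chr7:51621580-51621879 for Slc17a6.
Slc17a7 promoter: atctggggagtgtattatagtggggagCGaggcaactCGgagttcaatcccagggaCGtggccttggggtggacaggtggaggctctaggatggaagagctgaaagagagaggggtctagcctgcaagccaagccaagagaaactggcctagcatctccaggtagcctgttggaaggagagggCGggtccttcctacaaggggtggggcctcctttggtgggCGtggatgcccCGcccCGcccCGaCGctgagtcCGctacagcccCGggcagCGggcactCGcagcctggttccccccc
Slc17a6 promoter: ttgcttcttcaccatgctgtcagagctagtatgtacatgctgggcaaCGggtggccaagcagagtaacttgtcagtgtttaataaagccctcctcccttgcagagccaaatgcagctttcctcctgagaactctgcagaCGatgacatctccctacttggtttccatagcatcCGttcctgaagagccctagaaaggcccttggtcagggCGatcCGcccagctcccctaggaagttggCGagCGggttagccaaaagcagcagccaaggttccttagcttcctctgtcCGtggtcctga

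The Slc17a7 window holds 13 CpG and 63.7% GC, and 62.1% of the 32851 mouse promoters in the table held fewer CpG. The Slc17a6 window holds 8 CpG and 53.7% GC, with fewer CpG in 51.4% of promoters, and it ends before the GENCODE start of the gene. The first Slc17a8 promoter holds 7 CpG, the median of all promoters, with 58% GC. The E-box CAGATG bound by NEUROD1 was in none of these 3 windows on either strand, against 17.2% of all promoters. Windows at a second RefSeq start of Slc17a6 and of Slc17a8 each held 1. The ZIC core CAGCAGG was also in none of them, against 10.5% of all promoters. Each match or its absence describes letters in these windows only.

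Sequencing gave 8058760 to 8573045 reads counted in genes per DMSO library and 8377056 to 12047837 per GSK-126 library, so that 3 counts are 0.249 to 0.372 CPM (counts scaled to a library of 1000000 reads). The label of granule neurons was checked against its 11 markers (among them Neurod1, Zic1 and Gabra6), all of which passed the filter, with a summed level of 5088 to 6781 CPM in DMSO and 3616 to 5715 CPM in GSK-126. The 7 astrocyte and Bergmann glia markers also summed to 2352 to 7234 CPM in DMSO and 2307 to 7466 CPM in GSK-126, and stood above the granule sum in replicate 1 of both groups (7234 against 5088 CPM in DMSO and 7466 against 3616 CPM in GSK-126). Replicate 2 stood apart in both groups, with the highest granule and pan-neuronal sums and the lowest astrocyte sum.

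Slc17a7, the VGLUT1 gene, was lower with GSK-126 in each of the 3 pairs. DMSO replicates 1, 2 and 3 had 468, 2039 and 502 counts, which is 54.0, 255 and 59.3 CPM. GSK-126 replicates 1, 2 and 3 had 172, 326 and 151 counts, which is 14.3, 39.3 and 17.2 CPM. DMSO replicate 2 stood 4.72-fold above the lowest DMSO library, and replicate 2 was also the highest GSK-126 library. The groups did not overlap: the highest GSK-126 library was below the lowest DMSO library. Of all genes tested, 5.44% had groups that did not overlap with GSK-126 lower. The group mean was 123 ± 114 CPM in DMSO and 23.6 ± 13.7 CPM in GSK-126 (SD, n = 3).

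The Slc17a7 level in GSK-126 was 26.5% of its DMSO partner in replicate 1, 15.4% in replicate 2 and 29.0% in replicate 3. The fitted log2 fold change was -2.39 (SE 0.65) over the groups and -2.16 (SE 0.17) with the replicate number as a block. The log2 differences in pairs 1, 2 and 3 were -1.90, -2.69 and -1.77. The SE is worked back from the fit, which shares variance across genes. It does not measure the spread of these 3 pairs and serves as no test. By fold change Slc17a7 ranked 8 from the lowest of 16343 genes, and 10 with the block. Its size rested in part on DMSO replicate 2: without that library the log2 fold change was -1.26, and with the block and without replicate 2 in either group it was -1.83. In bulk RNA, fewer cells of a type and less RNA per cell cannot be told apart.

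Slc17a6, the VGLUT2 gene, was at almost the same level in all DMSO libraries. Replicates 1, 2 and 3 had 834, 755 and 812 counts, which is 96.2, 94.4 and 95.9 CPM. The GSK-126 libraries had 1186, 1269 and 932 counts, which is 98.8, 153 and 106 CPM. The groups did not overlap, with GSK-126 higher, as in 5.43% of all genes tested, but GSK-126 replicate 1 stood only 2.57 CPM above its DMSO partner and the 95% Poisson intervals of that pair overlapped (89.8 to 103 and 93.2 to 105 CPM). GSK-126 replicate 2 was the high library, at 162% of its partner, against 103% in replicate 1 and 111% in replicate 3. The mean was 95.5 ± 0.983 CPM in DMSO and 119 ± 29.4 CPM in GSK-126 (SD, n = 3), a log2 fold change of 0.32 (SE 0.18), or 0.29 (SE 0.14) with the block. Without replicate 2 in either group the blocked value was 0.11.

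Slc17a8, the VGLUT3 gene, was close to the low end of what could be measured. DMSO replicates 1, 2 and 3 had 47, 19 and 30 counts, which is 5.42, 2.38 and 3.54 CPM. GSK-126 replicates 1, 2 and 3 had 46, 39 and 41 counts, which is 3.83, 4.70 and 4.67 CPM. The groups overlapped, and DMSO replicate 2 was the lowest library with a 95% Poisson interval of 1.43 to 3.71 CPM. The log2 fold change was 0.21 (SE 0.38), or 0.25 (SE 0.37) with the block. It turned to -0.02 without DMSO replicate 2 and to -0.05 with the block and without replicate 2, so these libraries give no direction for it.

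**Figure D1:**
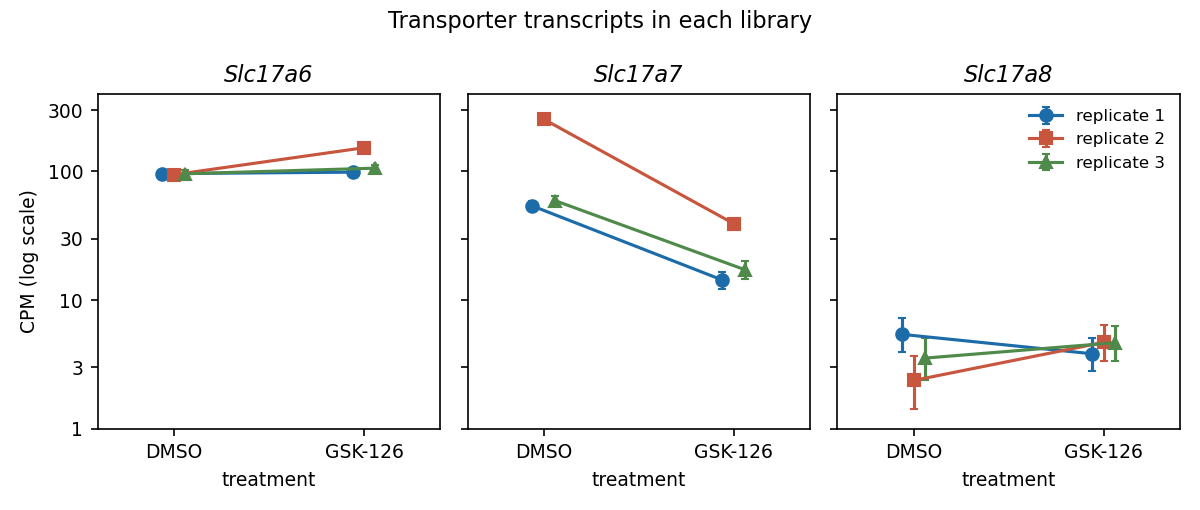
CPM (log scale) of Slc17a6, Slc17a7 and Slc17a8 in 3 DMSO and 3 GSK-126 libraries, with lines joining libraries of the same replicate number and bars giving the 95% Poisson interval of the counts. Slc17a7 is lower in GSK-126 along every line, at 54.0 to 255 CPM in DMSO and 14.3 to 39.3 CPM in GSK-126, while every Slc17a6 value is 94.4 CPM or above and every Slc17a8 value 5.42 CPM or below.

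The 3 genes also differed in their spread among the DMSO cultures. On the log2 CPM scale the SD over the 3 DMSO libraries was 1.25 for Slc17a7, and 1.71% of tested genes had a larger one. For Slc17a6 it was 0.01, and 99.6% of genes had a larger one. The spread of Slc17a7 rested on DMSO replicate 2: over replicates 1 and 3 alone the SD was 0.10 for Slc17a7, with a larger one in 72.2% of genes, against 0.41 for Slc17a8 and 0.003 for Slc17a6. With GSK-126 the SD was 0.77 for Slc17a7 and 0.34 for Slc17a6.

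Levels of the 3 genes can be compared per kilobase of exon. In DMSO, Slc17a7 had a mean level of 22.8 ± 21.2 CPM per kb, Slc17a6 17.7 ± 0.182 and Slc17a8 0.801 ± 0.326 (SD, n = 3). A lower level was found in 85.1% of tested genes for Slc17a7, in 79.7% for Slc17a6 and in 8.51% for Slc17a8. The order of Slc17a7 and Slc17a6 in DMSO lay within the spread of Slc17a7, since Slc17a7 was below Slc17a6 in replicates 1 and 3 (10.01 and 11.0 against 17.8 and 17.8 CPM per kb) and above it in replicate 2 (47.3 against 17.5). In GSK-126 the order was Slc17a6 at 22.1 ± 5.44, Slc17a7 at 4.38 ± 2.53 and Slc17a8 at 0.932 ± 0.104 CPM per kb, with no overlap of the libraries' ranges between neighbours.

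The ratio of Slc17a7 to Slc17a6 reads per kb was 0.562 in DMSO replicate 1, 2.704 in replicate 2 and 0.619 in replicate 3. In GSK-126 it was 0.145, 0.257 and 0.162 in the same order. VGLUT1 transcripts thus outnumbered VGLUT2 transcripts per length in DMSO replicate 2 alone. The 95% exact binomial intervals, which cover counting error only, were 0.501 to 0.630 for DMSO replicate 1, the lowest DMSO library, and 0.227 to 0.291 for GSK-126 replicate 2, the highest GSK-126 library. The ratio was 3.87-fold lower with GSK-126 in pair 1, 10.5-fold lower in pair 2 and 3.82-fold lower in pair 3. The mean log2 ratio was -0.03 ± 1.27 in DMSO and -2.46 ± 0.44 in GSK-126 (SD, n = 3), a difference of -2.43, and of -1.94 without replicate 2 in either group.

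**Figure D2:**
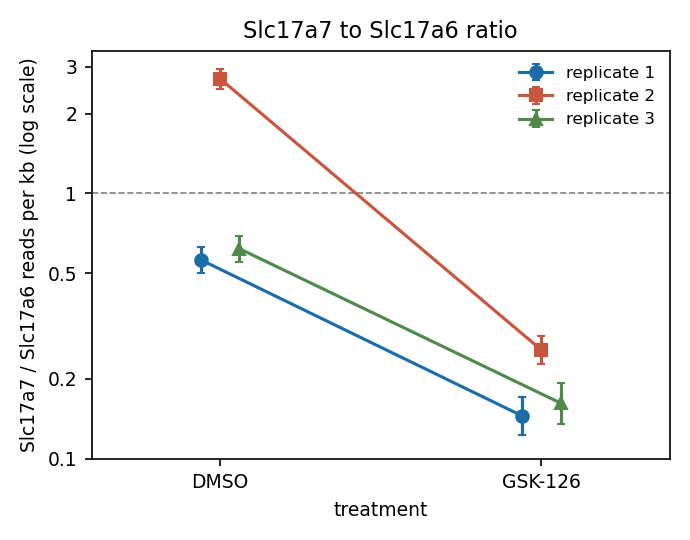
Ratio of Slc17a7 to Slc17a6 reads per kb of exon (log scale) in each library, with lines joining libraries of the same replicate number, bars giving the 95% exact binomial interval and a dashed line at equal levels. All 3 GSK-126 libraries lie between 0.145 and 0.257, below the 3 DMSO libraries at 0.562 to 2.704.

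The exon length used for Slc17a7 (5392 bases) includes its non-coding transcripts, and its main coding transcript has 2915 bases, against 5399 and 4137 bases for Slc17a6. With main transcript lengths the ratio was 0.796, 3.83 and 0.877 in the DMSO libraries and 0.206, 0.365 and 0.230 in the GSK-126 libraries. The order of the libraries cannot change with the lengths, but DMSO replicate 2 was still the only one above equal levels.

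Summed over the 3 genes, the transporter pool was 29.0, 65.3 and 29.5 CPM per kb in DMSO replicates 1, 2 and 3 and 21.8, 36.6 and 23.8 in the GSK-126 libraries. The pool in GSK-126 was thus 75.1%, 56.1% and 80.8% of its partner. Slc17a7 made up 34.5%, 72.4% and 37.3% of the pool in DMSO and 12.2%, 19.9% and 13.4% in GSK-126. Slc17a6 made up 61.5%, 26.8% and 60.2% in DMSO and 84.1%, 77.4% and 82.5% in GSK-126. Most of the pool's difference lay in Slc17a7: its level differed by -7.36, -40.0 and -7.81 CPM per kb in pairs 1, 2 and 3. The Slc17a6 level differed by 0.475, 10.8 and 1.89 CPM per kb. In every pair the Slc17a6 difference was thus smaller in size than the Slc17a7 difference. With main transcript lengths the pool was 43.0, 110.8 and 44.3 CPM per kb in DMSO and 29.6, 51.5 and 32.6 in GSK-126. The percentages and shares of the pool given here therefore depend on the length used.

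**Figure D3:**
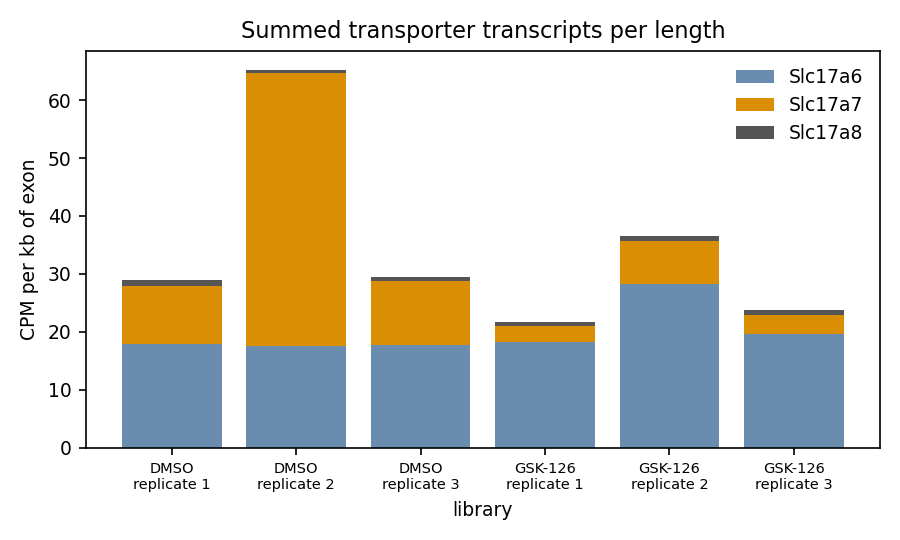
Summed level of the 3 transporter genes in each library, in CPM per kb of exon, with 1 stacked bar per library and colours for Slc17a6, Slc17a7 and Slc17a8. The Slc17a6 segment is 17.5 to 17.8 in the DMSO libraries and 18.3 to 28.3 in the GSK-126 libraries, and the Slc17a7 segment is 10.01 to 47.3 and 2.66 to 7.28.

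Neuronal marker sums were lower in the same libraries. The 8 pan-neuronal markers (among them Map2, Tubb3 and Snap25) summed to 3337, 5207 and 3715 CPM in DMSO replicates 1, 2 and 3. In GSK-126 they summed to 2518, 4063 and 2879 CPM, which is 75.5%, 78.0% and 77.5% of their partners. With the block 7 of the 8 had a log2 fold change below 0 and 1 above. Tubb3, the 1 above, was at 79.1, 79.9 and 104 CPM in DMSO and 101, 125 and 111 CPM in GSK-126. Snap25 had the largest fall in CPM in every pair, from 483, 1207 and 534 to 215, 515 and 292 CPM. Across all genes, edgeR's quasi-likelihood test with Benjamini-Hochberg adjustment called 0 of 16343 genes (0%) at an adjusted p of 0.05, with 981 genes at an unadjusted p under 0.05. DESeq2 called 46 genes higher and 13 lower. With the replicate block, edgeR called 365 genes higher (2.23% of those tested) and 232 lower (1.42%), and with that block 2 of the 8 pan-neuronal markers were called lower (Rbfox3 and Snap25) and 5 of the 11 granule neuron markers (Neurod1, Etv1, Cbln1, Cbln3 and Gabra6). Without replicate 2 in either group these counts were 1 (Snap25) and 3 (Etv1, Cbln3 and Gabra6). Of the 11 granule neuron markers 8 had a blocked log2 fold change below 0 and 3 above: Neurod2 (0.004), Pax6 (0.04) and Barhl1 (0.39). The Barhl1 groups did not overlap, with GSK-126 higher, as in 5.43% of all genes tested.

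Per 1000 CPM of pan-neuronal markers, Slc17a7 was at 16.2, 49.0 and 15.97 CPM in DMSO replicates 1, 2 and 3 and at 5.69, 9.67 and 5.97 CPM in GSK-126. That is 35.2%, 19.7% and 37.4% of the DMSO partner, on a mean log2 difference of -1.76. On the same scale Slc17a6 was at 28.8, 18.1 and 25.8 CPM in DMSO and at 39.2, 37.6 and 36.9 CPM in GSK-126, which is 136%, 208% and 143% of the partner. Relative to the neuronal markers, Slc17a7 was thus lower and Slc17a6 higher with GSK-126 in every pair. In CPM, Slc17a6 was at 103%, 162% and 111% of its partner. Its rise on this scale in pairs 1 and 3 thus lay mostly in the lower marker sum.

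The other marker lists were also read by pair. In pairs 1, 2 and 3 the GSK-126 sum was 182%, 113% and 110% of its partner for microglia markers. It was 125%, 115% and 104% for oligodendrocyte lineage markers and 157%, 147% and 144% for endothelial and mural markers. For GABAergic markers it was 74.2%, 87.3% and 79.3%. For unipolar brush and nuclear glutamatergic markers it was 87.0%, 95.5% and 88.1%. The astrocyte sum in GSK-126 was 103%, 98.1% and 86.0% of its partner, with 1 of 7 markers called higher with the block (Gdf10). Of 8 markers of unipolar brush and nuclear glutamatergic neurons, which also use these transporters, 5 were tested and 1 was called lower (Eomes), and their sums were 294 to 347 CPM in DMSO and 259 to 331 CPM in GSK-126. Tbr1, Lhx9 and Lhx2 of that list were at 0 to 9 counts in every library. The 7 GABAergic markers summed to 197 to 264 CPM in DMSO and 172 to 197 CPM in GSK-126, with 1 called lower (Slc32a1). Of the 8 oligodendrocyte lineage markers 1 was called higher (Cspg4; sums of 431 to 656 and 495 to 783 CPM), of the 6 microglia markers 0 (171 to 271 and 193 to 429 CPM, with 1 at an unadjusted p under 0.05 in edgeR with the block and 0 called by DESeq2), and of the 4 tested among 5 endothelial and mural markers 1 was called higher (Pdgfrb; 128 to 186 and 188 to 269 CPM). Blocked log2 fold changes above and below 0 numbered 5 and 3 for oligodendrocyte lineage markers and 4 and 2 for microglia markers. They numbered 3 and 1 for endothelial and mural, 2 and 5 for GABAergic and 1 and 4 for unipolar brush and nuclear glutamatergic markers. Of all genes tested, 2.23% were called higher and 1.42% lower with the block. Of the genes called in these lists, Pdgfrb alone was still called without replicate 2, and Gdf10, Eomes, Slc32a1 and Cspg4 were not. The part of these differences in the transporter values was not tested.

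Around the transporters, 7 lists of the genes that make, move and recover glutamate and energize its vesicles held 50 genes, of which 42 were tested. Without the block 0 of the 42 were called by edgeR, with 2 at an unadjusted p under 0.05, and DESeq2 called 1. With the block 1 rose (2.38%) and 3 fell (7.14%), against 2.23% and 1.42% of all genes tested. Their median log2 fold change with the block was 0.03, against -0.002 for all genes. The 42 genes lay on both sides of 0, with 23 above and 19 below.

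Slc1a6, which encodes the glutamate uptake transporter EAAT4 known from Purkinje cells, was the gene that rose. It was at 19.6, 17.1 and 21.03 CPM in DMSO replicates 1, 2 and 3 and at 43.5, 33.1 and 38.7 CPM in GSK-126, so that every treated library was above every control. The log2 fold change with the block was 0.99 (SE 0.15, adjusted p = 0.00601, edgeR's quasi-likelihood test), and the adjusted p was 0.00278 with DESeq2 and 0.465 with edgeR without the block. Without replicate 2 it was still called (adjusted p = 0.0293, edgeR with the block). The other 3 tested uptake transporters, of 5 in the list, were not called.

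Slc32a1 encodes VGAT, the vesicular transporter of GABA and glycine, and fell from 62.1, 57.9 and 65.0 CPM in DMSO replicates 1, 2 and 3 to 46.7, 38.2 and 39.1 CPM in GSK-126. Its log2 fold change with the block was -0.58 (SE 0.12, adjusted p = 0.0283, edgeR). Among the other 2 tested vesicular transporters, of 4 in the list, none was called. No treated library reached the lowest control, as for Slc17a7.

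Sh3gl2 encodes endophilin A1, which acts in the recycling of synaptic vesicles and whose family is known to bind VGLUT1. It fell from 247, 365 and 294 CPM in DMSO to 158, 286 and 208 CPM in GSK-126, with overlapping groups but a lower value in every pair (log2 fold change -0.50, SE 0.10, adjusted p = 0.0257, edgeR with the block). The other 2 endophilin genes were not called. Among 17 tested proton pump genes of 18, Atp6v1g2, a subunit form found mainly in neurons, fell from 56.9, 128 and 81.4 CPM to 42.3, 88.6 and 61.8 CPM (log2 fold change -0.45, SE 0.11, adjusted p = 0.0475, edgeR with the block), and 16 were not called. Slc32a1, Sh3gl2 and Atp6v1g2 were not called without the block, nor with the block once replicate 2 was left out (adjusted p = 0.130, 0.0853 and 0.245, edgeR), nor once replicate 3 was left out.

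No gene was called, with or without the block, by edgeR or DESeq2, in the lists for glutamate synthesis and glutamine supply (10 of 11 tested), for the remaining SLC17 family (2 of 6) and for vesicular chloride and cation exchangers (3 of 3). With the block, 1 gene of the first list and 0 of the other lists had an unadjusted p under 0.05 in edgeR. Of each list the most abundant gene is given: Slc38a1, a glutamine transporter of neurons, was at 336 CPM in DMSO and 343 CPM in GSK-126. Slc17a5, the lysosomal sialic acid exporter sialin, was at 33.4 and 38.5 CPM. Clcn3, a chloride and proton exchanger of intracellular vesicles, was at 221 and 195 CPM.

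**Figure D4:**
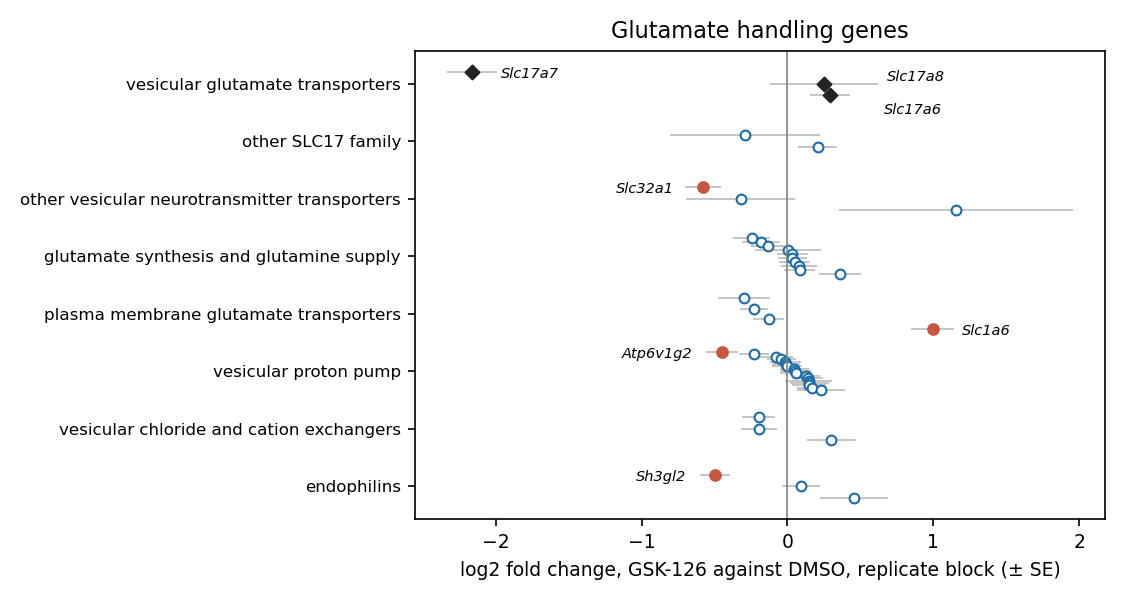
Log2 fold change of GSK-126 against DMSO with the replicate block (bars give ± SE), with 1 point per tested gene and 1 row per list. Filled circles are the 4 genes called at an adjusted p of 0.05, open circles the other tested genes and black diamonds the 3 transporters, which carry no test. Slc17a7 stands at -2.16, while the 42 other genes lie between -0.58 and 1.16. The upper end is a gene at 0 to 17 counts per library (SE 0.80) that was not called.

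The genes whose profile over the 6 libraries was nearest to each transporter were ranked among 11418 genes of at least 10 CPM by the root mean square difference in log2 CPM after each gene's mean was taken off. Nearest to Slc17a7 was Slc8a2, a plasma membrane sodium and calcium exchanger of neurons, at a difference of 0.27. It was at 99.7, 364 and 125 CPM in DMSO replicates 1, 2 and 3 and at 32.4, 74.6 and 45.0 CPM in GSK-126, with the same high library in each group. The next were Gabra6, the GABA-A receptor subunit of mature granule neurons, at 0.51, the RNA gene Tunar at 0.53, Cbln3, a granule neuron cerebellin, at 0.54 and Arhgap26 at 0.54. All 5 were highest in replicate 2 of each group and lower with GSK-126 in every pair. Since they were picked for this likeness, the values are a description.

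**Figure D5:**
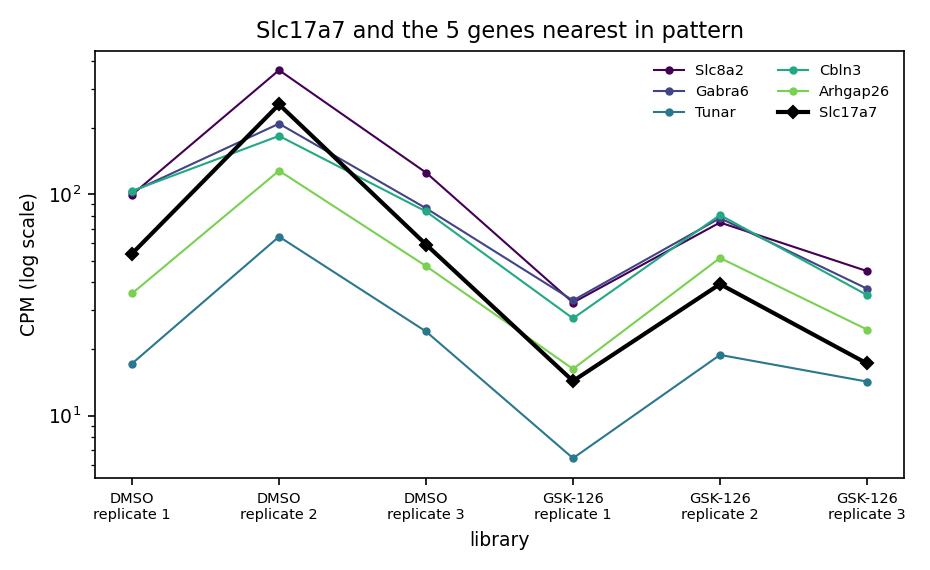
CPM (log scale) of Slc17a7 (thick black line) and of the 5 genes nearest to it in pattern, in the 3 DMSO and 3 GSK-126 libraries. All 6 lines peak at DMSO replicate 2, and each GSK-126 library lies below its DMSO partner.

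Nearest to Slc17a6 were Wrb, at 0.04, then Gm32036, Uevld, Esrrg and Acsl3, the last at 0.08. Wrb, part of the machinery that inserts tail-anchored proteins into membranes, was at 58.3, 59.8 and 59.3 CPM in DMSO replicates 1, 2 and 3 and at 57.7, 88.6 and 64.0 CPM in GSK-126. Like Slc17a6 it was level in DMSO and highest in GSK-126 replicate 2. Nearest to Slc17a8 were Gm9725, at 0.09, Kntc1, Klf11, Pld1 and Prickle2, the last at 0.13, among 11419 genes, but a Slc17a8 profile over 19 to 47 counts carries a wide counting error.

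Genes next to Slc17a7 on the chromosome were read for comparison. Of 15 protein-coding genes that start within 100 kb of its start, 9 were tested and 0 were called by edgeR or DESeq2, with 0 at an unadjusted p under 0.05 with or without the block, and the nearest, Aldh16a1, at 9.36 kb, had a log2 fold change of -0.13 with the block. Around Slc17a6 the annotation places 0 such genes. Around Slc17a8 it places 2, Nr1h4 and Scyl2, with log2 fold changes of 0.01 and -0.11, 0 calls by edgeR or DESeq2 and 0 at an unadjusted p under 0.05.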

How the data were processed

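RNA-seq libraries of cultured CGNs were read as whole-number counts per gene symbol, as deposited by the authors. According to the methods and the submitters' processing notes, the authors trimmed reads with Trimmomatic 0.38, aligned them to GRCm38 with STAR 2.7.2b and counted reads over exons with HTSeq; the strand setting is not given in the sources used here, so reads of antisense genes may not be separated. The 5 summary rows of each table were left out; reads in no feature were 44.8 to 46.7% of all reads and 39.1 to 41.6% were assigned to genes.

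Counts were fitted over all genes with edgeR 4.0.16 (R 4.3.3, limma 3.58.1): filterByExpr, TMM scaling, quasi-likelihood test, Benjamini-Hochberg adjustment at 0.05, treatment as the only term. Alternatives were the replicate number as a block, DESeq2 1.42.0, DESeq2 size factors, no filter and leaving out libraries. Same-numbered libraries deviated together (correlations of 0.351, 0.503 and 0.517, against -0.411 to -0.0103 for different numbers). The deviations were from each group's mean and sum to 0 in each gene. The negative values for different numbers thus follow in part from the positive ones. By the methods each replicate is a culture of pooled litters, and the numbers were taken as pairs. The fit was tested on simulated data. CPM used TMM library sizes, and levels per kb used the union of GENCODE M21 exons. Each SE of a log2 fold change is its absolute value divided by the square root of edgeR's F statistic. That statistic uses a variance moderated over all genes. The p-values without the block measure the spread between the cultures of a group. Those with the block have the differences between replicate numbers taken out and measure the spread left within the pairs.

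The members and the gene lists were chosen with earlier results of these data known. Named in the text were the 3 transporters; in each glutamate list every gene called with or without the block (at most the 4 of largest change), otherwise the most abundant; the 5 genes nearest in profile; and protein-coding neighbours within 100 kb. The cell type markers lie outside this rule, and those given with a call or a value were named after their values were seen. SciPy 1.17.1 gave exact intervals at 95% confidence. Intervals and floors cover counting error only.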

Additional observations from a re-analysis of the deposited data

How the results depend on the processing

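The replicate block decided most of the calls. Over all genes edgeR called 0 higher and 0 lower without the block, 365 and 232 with the replicate block, 46 and 13 were called by DESeq2, and 55 and 30 by edgeR with no filter on low counts. With the replicate block and 1 replicate number left out, 125 to 396 genes were called higher and 53 to 308 lower, the fewest without replicate 2 and 211 and 148 without replicate 3; without the block, leaving out any 1 library gave 0 and 0. In the glutamate lists 1 gene was called higher with the replicate block, with DESeq2 and with no filter, and 1 whichever replicate number was left out of the block, against 0 without the block and 1 library left out; 3 were called lower with the replicate block and 0 to 3 with a replicate number left out. The cause of these differences was not tested.

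The Slc17a7 log2 fold change was below 0 in all 14 alternatives. As its groups did not overlap, leaving out libraries could hardly reverse that sign, and only the size is informative. With 1 library left out its range was -2.96 to -1.26, the latter once DMSO replicate 2 was dropped. In the blocked fits lacking a replicate number the range was -2.33 to -1.83. Slc17a6, whose groups did not overlap either, was above 0 in all 13 (0.10 to 0.44 with 1 library left out). Slc17a8 ran from -0.02 to 0.57 with 1 library left out and from -0.05 to 0.67 with the block and a replicate number left out. The log2 ratio difference ran from -2.83 to -1.69 with 1 library left out. Chosen after seeing the data were the main transcript lengths, the ratio, the marker lists and the DMSO spread without replicate 2, and the scaling of Slc17a7 to the pan-neuronal markers. Depth limits Slc17a8 most, at 19 to 47 counts.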
